A study of Mus with 12 samples.

Results

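The CXC chemokines described here are 9 genes chosen by symbol, Cxcl1, Cxcl2, Cxcl3, Cxcl9, Cxcl10, Cxcl11, Cxcl12, Cxcl13 and Cxcl16. All 9 were found among the 27294 genes of the deposited table. They were measured by RNA sequencing of poly(A) RNA in 12 libraries, labelled as primary macrophages from the mouse peritoneal cavity, in 4 groups of 3 libraries. The groups were knockout macrophages with oxLDL (KO oxLDL), wild-type macrophages with oxLDL (WT oxLDL), knockout macrophages with no treatment label (KO untreated) and wild-type macrophages with no treatment label (WT untreated). oxLDL is oxidised low-density lipoprotein, a modified cholesterol carrier that macrophages take up in the artery wall, although the titles of these libraries say LDL and the protocol text speaks of adipose RNA. The genotype labels give KO and WT without a gene, a Cre driver, a strain or an age, and the series title names WEE1, a cell cycle kinase, and the NF-κB subunit p65. Nothing in the labels says that the 3 libraries of a group came from separate mice, so p-values measure only the spread between these libraries.

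CXC chemokines are small secreted proteins that guide leukocytes through receptors on the cell surface. Cxcl1, Cxcl2 and Cxcl3 draw neutrophils through Cxcr2 and are induced through NF-κB; Cxcl9, Cxcl10 and Cxcl11 are induced by interferons and draw activated T and natural killer (NK) cells through Cxcr3. Cxcl12 and Cxcl13 position cells in resting tissue through Cxcr4 and Cxcr5, and Cxcl16 is held in the membrane, where it binds oxidised lipoprotein, until proteases shed it as a ligand of Cxcr6.

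Library totals ran from 53588814 to 76809931 counts. Wee1 was still counted in the KO libraries, at 1.25 to 1.6 FPKM in KO oxLDL, 1.44 to 1.78 FPKM in WT oxLDL, 1.22 to 1.63 FPKM in KO untreated and 2.8 to 3.25 FPKM in WT untreated libraries. FPKM is a fragment count divided by transcript length and library size. The 8 macrophage markers summed to 10653 to 11295 FPKM in KO oxLDL, 14597 to 15592 in WT oxLDL, 11086 to 11795 in KO untreated and 21008 to 21406 in WT untreated libraries, while the 6 markers of large resident peritoneal macrophages summed to 2.66 to 5.29 FPKM over all libraries. Fitted differences below are log2 values from edgeR's quasi-likelihood test with TMM scaling, and a gene counts as called where its Benjamini-Hochberg adjusted p over the 17291 tested genes was under 0.05. FPKM are scaled by library totals only, and that scaling placed the median of all genes at -0.46 log2 for oxLDL against untreated in WT, -0.12 for KO against WT untreated and 0.36 for KO against WT with oxLDL, where TMM placed it at -0.06, -0.01 and 0.05.

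With oxLDL, WT macrophages held far more CXC chemokine transcript than any other group, and most of it was Cxcl10. The 9 genes summed to 19.7 ± 1.2 FPKM in KO oxLDL, 826 ± 34.4 FPKM in WT oxLDL, 19.8 ± 1.88 FPKM in KO untreated and 99.4 ± 2.51 FPKM in WT untreated macrophages (SD, n = 3 each). Cxcl10 made up 59.1 to 61.3% of the summed FPKM in WT oxLDL libraries and 8.93 to 11% in WT untreated libraries. Cxcl13 and Cxcl16 together made up 86.6 to 91.4% of it in KO oxLDL, 14.1 to 15.8% in WT oxLDL, 90.3 to 92.3% in KO untreated and 75 to 76.6% in WT untreated libraries. In both KO groups the transcripts were thus mainly Cxcl13 and Cxcl16, and neither of them exceeded 51.1% of the sum in any KO library.

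**Figure D1:**
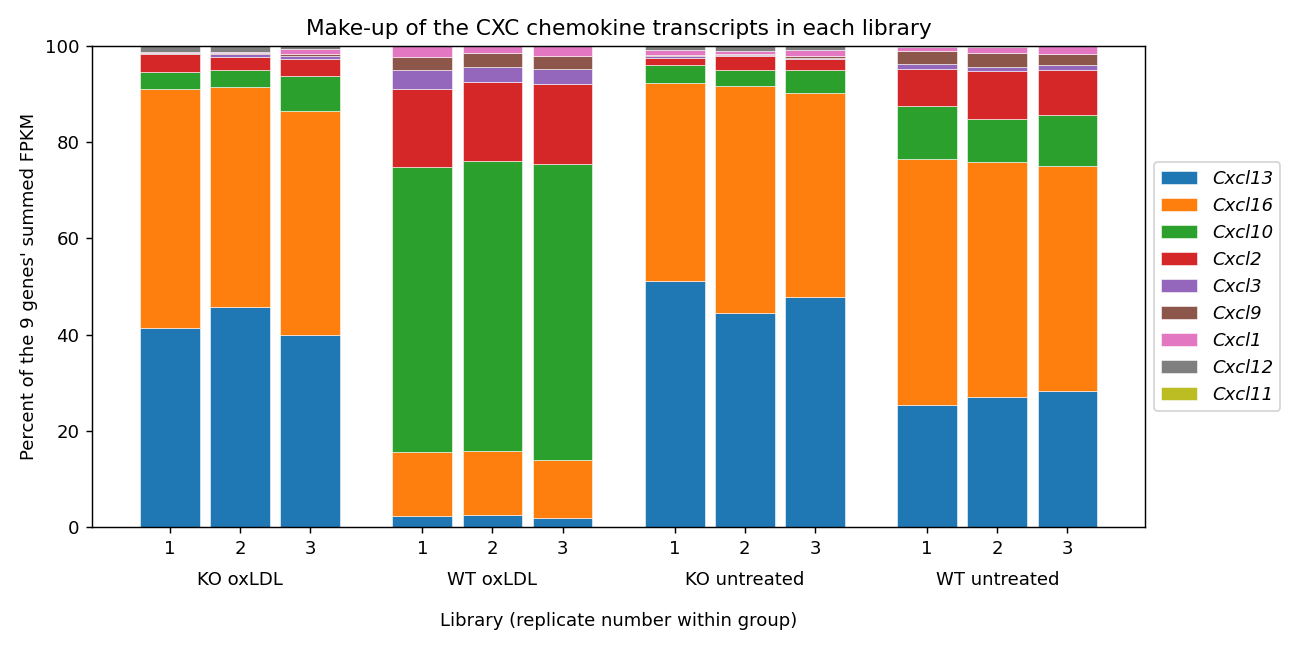
Percent of the summed FPKM of the 9 CXC chemokines contributed by each gene (vertical axis) in each of the 12 libraries (horizontal axis, replicate number within group), one stacked bar per library. Cxcl10 takes 59.1 to 61.3% of the bar in the 3 WT oxLDL libraries, and Cxcl13 and Cxcl16 together take at least 86.6% in the 6 KO libraries.

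In KO macrophages 0 of the 9 chemokines were called with oxLDL by edgeR, where 0.0116% of all genes tested were called higher and 0% lower. There, 1 of the 9, Cxcl2, and 1211 of all genes had an unadjusted p under 0.05, and DESeq2 also called 0 of the 9. In WT macrophages 7 of the 9 rose with oxLDL and 0 fell, where 23.9% of all genes were called higher and 27.2% lower. With oxLDL 8 were lower in KO than in WT macrophages and 0 higher, beside 30.6% of all genes higher and 27.4% lower. Untreated, 7 were lower in KO than in WT macrophages and 0 higher, beside 14.8% of all genes higher and 16.2% lower. The interaction, which is the oxLDL change in KO less the oxLDL change in WT, was called negative for 6 chemokines and positive for 0, beside 22.1% of all genes called positive and 19.6% negative.

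Cxcl11 was at 0 counts in KO, so medians of the fitted differences are given for the 8 other chemokines. They were 0.14 log2 for oxLDL in KO and 3.83 for oxLDL in WT, beside medians of -0.00 and -0.06 over all genes. They were -7.71 for KO against WT with oxLDL and -3.05 for KO against WT untreated, or -7.44 and -2.52 over all 9 with Cxcl11 placed at its bound; over all genes these medians were 0.05 and -0.01. The low-count filter passed all 9, but Cxcl11 reached its level in all 3 libraries of the WT oxLDL group only, and Cxcl3 and Cxcl9 only in the WT groups. Cxcl11 is among the 7 called higher with oxLDL in WT and the 8 called lower in KO with oxLDL.

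**Figure D2:**
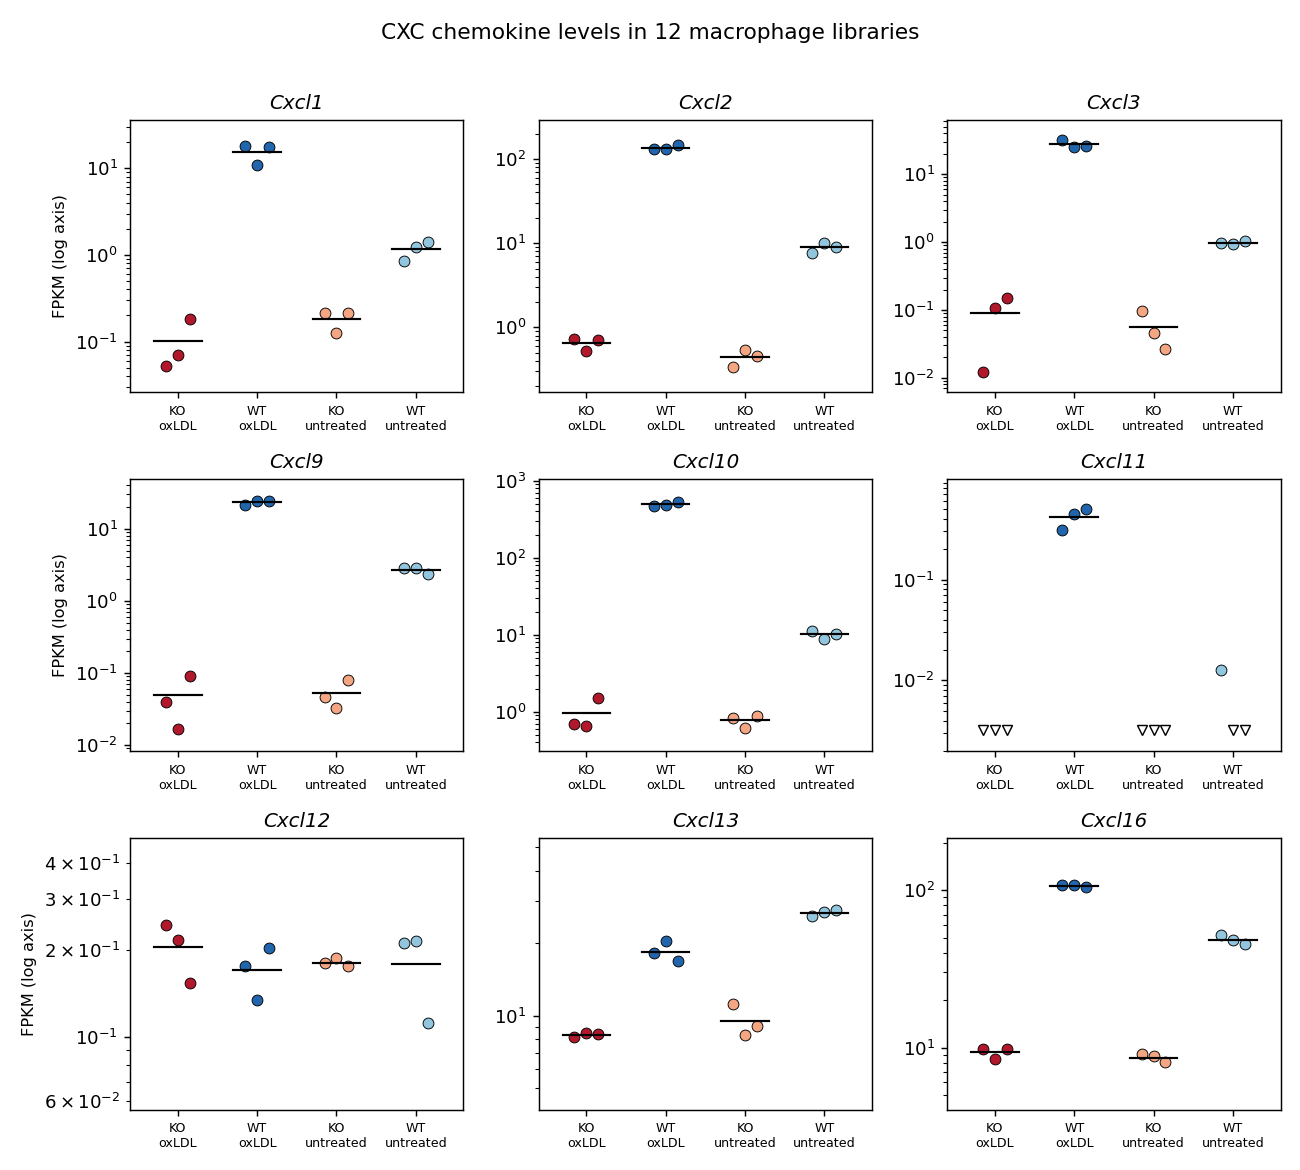
FPKM of each CXC chemokine (vertical axes, log scale, one panel per gene) in each library of the 4 groups (horizontal axes); points are libraries, lines are means of groups with no library at 0, and open triangles mark libraries listed at 0. Cxcl1, Cxcl2, Cxcl3, Cxcl9, Cxcl10 and Cxcl16 are highest in WT oxLDL libraries and lowest in both KO groups, Cxcl13 is highest in WT untreated libraries at 26 to 27.4 FPKM, and Cxcl12 lies between 0.112 and 0.245 FPKM throughout.

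Cxcl2 was the most abundant neutrophil-attracting ligand in all 4 groups. It had 0.722, 0.525 and 0.714 FPKM in KO oxLDL libraries, 131, 132 and 145 FPKM in WT oxLDL libraries, 0.34, 0.534 and 0.453 FPKM in KO untreated libraries and 7.73, 9.93 and 9.08 FPKM in WT untreated libraries. Both WT groups lay above both KO groups and apart from each other, and the KO groups overlapped. With oxLDL, Cxcl2 differed by 0.54 ± 0.18 log2 in KO (SE; edgeR's quasi-likelihood test, Benjamini-Hochberg adjusted p = 0.454, 95% interval 0.16 to 0.91) and rose by 4.35 ± 0.11 in WT (edgeR, adjusted p = 2.78e-13). It was lower in KO than in WT macrophages by -7.98 ± 0.14 log2 with oxLDL and -4.17 ± 0.14 untreated.

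Cxcl1, at a lower level, was also highest in WT oxLDL, then in WT untreated, and lowest in the KO groups. It had 0.0521, 0.0706 and 0.184 FPKM in KO oxLDL libraries, 18, 10.9 and 17.5 FPKM in WT oxLDL libraries, 0.214, 0.124 and 0.213 FPKM in KO untreated libraries and 0.843, 1.24 and 1.42 FPKM in WT untreated libraries. The KO groups overlapped at 9 to 33 counts per library, and neither reached either WT group. With oxLDL the fitted difference in KO was -0.79 ± 0.44 log2 (edgeR's quasi-likelihood test, Benjamini-Hochberg adjusted p = 0.81, 95% interval -1.73 to 0.15), and the rise in WT was 4.13 ± 0.27. KO macrophages were lower than WT macrophages by -7.44 ± 0.35 log2 with oxLDL and -2.52 ± 0.33 untreated; without replicate 3 of KO oxLDL, its highest library, the oxLDL difference was -8.07.

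Cxcl3 had the largest fitted oxLDL rise of the 3 neutrophil ligands in WT, 5.20 ± 0.25 log2. Its levels were 0.0123, 0.108 and 0.15 FPKM in KO oxLDL, 31.5, 24.9 and 26 FPKM in WT oxLDL, 0.0968, 0.046 and 0.0268 FPKM in KO untreated and 0.974, 0.933 and 1.05 FPKM in WT untreated libraries. Every WT library exceeded every KO library, and the KO groups, at 5 to 43 counts per library, overlapped. In KO the oxLDL difference was 0.65 ± 0.53 log2 (95% interval -0.48 to 1.78), which includes a doubling. KO macrophages were lower by -8.47 ± 0.32 log2 with oxLDL and by -3.92 ± 0.37 untreated (-4.52 without replicate 1 of KO untreated).

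In bulk RNA, fewer cells of a type and less RNA per cell cannot be told apart. Of the neutrophil markers, 5 were measured. They summed to 32.3 to 38.2 FPKM in KO oxLDL, 139 to 146 in WT oxLDL, 34.9 to 36.4 in KO untreated and 61.6 to 66.4 in WT untreated libraries. As for Cxcl1 to Cxcl3, the sums were highest in WT oxLDL, then in WT untreated, and overlapped between the KO groups. Csf3r, the receptor for granulocyte colony-stimulating factor, averaged 33.8 FPKM in KO oxLDL, 138 in WT oxLDL, 34.1 in KO untreated and 61.1 in WT untreated libraries, most of those sums. The defining neutrophil genes S100a9, Ly6g and Retnlg were at 0 in both KO groups and summed to no more than 8 counts each in either WT group, so these 3 were at or near 0 throughout, while S100a8 averaged 1.47 FPKM in KO oxLDL, 3.6 in WT oxLDL, 1.47 in KO untreated and 3.17 in WT untreated libraries.

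Cxcl10 was the most abundant chemokine of the family in WT oxLDL macrophages. It had 0.683, 0.662 and 1.52 FPKM in KO oxLDL libraries, 476, 487 and 531 FPKM in WT oxLDL libraries, 0.821, 0.618 and 0.883 FPKM in KO untreated libraries and 11.2, 8.87 and 10.2 FPKM in WT untreated libraries. The lowest WT oxLDL library thus lay far above every other library, and the KO groups overlapped, with 1 high library, replicate 3, in KO oxLDL. With oxLDL, Cxcl10 differed by 0.30 ± 0.27 log2 in KO (edgeR's quasi-likelihood test, Benjamini-Hochberg adjusted p = 0.948), or by -0.20 without that replicate, and rose by 6.02 ± 0.20 in WT (edgeR, adjusted p = 3.93e-12). KO macrophages were lower by -9.31 ± 0.24 log2 with oxLDL and -3.58 ± 0.22 untreated.

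Cxcl9, which T cells read through Cxcr3, showed the largest untreated KO difference of the genes counted in both genotypes. Its levels were 0.0393, 0.0165 and 0.092 FPKM in KO oxLDL, 21.4, 24.7 and 24 FPKM in WT oxLDL, 0.0467, 0.033 and 0.08 FPKM in KO untreated and 2.84, 2.86 and 2.33 FPKM in WT untreated libraries. KO libraries held 4 to 23 counts of it, whichever the treatment, and WT libraries at least 495. The fitted differences were -0.13 ± 0.47 log2 for oxLDL in KO, 3.54 ± 0.18 for oxLDL in WT, -9.09 ± 0.27 for KO against WT with oxLDL (-9.83 without replicate 3 of KO oxLDL) and -5.42 ± 0.27 for KO against WT untreated. The sign of the KO value was not settled, at -0.87 without replicate 3 of KO oxLDL, 0.30 without its replicate 2 and 0.25 without replicate 3 of KO untreated.

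Cxcl11 was detected almost wholly in WT oxLDL macrophages. It had 0 counts in all 6 KO libraries, 93, 97 and 148 counts in WT oxLDL libraries, and 4, 0 and 0 counts in WT untreated libraries. Taking 3 counts over the KO group as its floor, it was at least 157-fold lower in KO than in WT macrophages with oxLDL. Cxcl11 passed the low-count filter only through the WT oxLDL group, where it was high. Its calls against that group are thus no independent evidence. The fitted rise with oxLDL in WT, 6.74 ± 0.92 log2, depends on the 4 counts of 1 untreated library; without replicate 1 of WT untreated that group was at 0 and the fitted value was 10.16, and limma on log2(FPKM + 1) gave 0.50. In KO no change could be estimated, and untreated KO and WT macrophages, at 0 and 4 counts, were not called different. The table annotates the gene as both a polymorphic pseudogene and protein coding.

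The 6 NK and T cell markers did not all follow the genotypes as these 3 ligands did. They summed to 0.594 to 0.782 FPKM in KO oxLDL, 1.19 to 1.71 in WT oxLDL, 0.529 to 0.642 in KO untreated and 2.73 to 3.18 in WT untreated libraries. Ncr1, an NK cell receptor, and Cd3e, a T cell receptor subunit, were at 0 in every KO library, and Cd8a was at 0 in KO oxLDL. Klrb1c, an NK cell receptor, ran the other way, with 26 counts in KO oxLDL, 8 in WT oxLDL, 24 in KO untreated and 12 in WT untreated libraries, and Cd3d totalled 9, 5, 4 and 4 counts in those groups. Cd4, the largest part of the sum in 3 of the 4 groups, averaged 0.625 FPKM in KO oxLDL, 0.658 in WT oxLDL, 0.551 in KO untreated and 2.08 in WT untreated libraries. Ncr1 totalled 242 counts in WT oxLDL and 253 counts in WT untreated libraries and was not called between them (0.35 ± 0.39 log2). The part of these cells in the levels of Cxcl9, Cxcl10 and Cxcl11 was not tested.

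Cxcl16, the membrane-bound ligand, had the smallest called oxLDL rise in WT. It had 9.73, 8.43 and 9.76 FPKM in KO oxLDL libraries, 108, 108 and 105 FPKM in WT oxLDL libraries, 9.06, 8.81 and 8.04 FPKM in KO untreated libraries and 52.1, 48.5 and 45.2 FPKM in WT untreated libraries. The 3 levels, with the KO groups overlapping as 1, were spread far less within groups than between them. With oxLDL, Cxcl16 differed by 0.11 ± 0.07 log2 in KO (edgeR's quasi-likelihood test, Benjamini-Hochberg adjusted p = 0.885, 95% interval -0.05 to 0.27) and rose by 1.54 ± 0.07 in WT (edgeR, adjusted p = 1.51e-10). KO macrophages were lower by -3.82 ± 0.08 log2 with oxLDL and -2.39 ± 0.07 untreated.

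Cxcl13, which attracts B cells, was lower in KO and was not among the genes that rose with oxLDL. It had 8.12, 8.49 and 8.36 FPKM in KO oxLDL libraries, 18.1, 20.3 and 16.9 FPKM in WT oxLDL libraries, 11.2, 8.27 and 9.02 FPKM in KO untreated libraries and 26, 26.9 and 27.4 FPKM in WT untreated libraries. In FPKM the WT oxLDL libraries thus lay below all WT untreated libraries and above all KO libraries. KO macrophages were lower by -1.45 ± 0.10 log2 with oxLDL and -1.39 ± 0.10 untreated (edgeR's quasi-likelihood test, Benjamini-Hochberg adjusted p = 1.49e-08 and 6.9e-08). For oxLDL in KO the difference was -0.19 ± 0.10 (95% interval -0.41 to 0.03). For oxLDL in WT the TMM-scaled difference was -0.13 ± 0.10 (edgeR, adjusted p = 0.31), but with library totals alone it was -0.54 (edgeR, adjusted p = 0.000358), so the call rests on the scaling. The 6 B cell markers summed to 7.27 to 7.87 FPKM in KO oxLDL, 20.2 to 26.7 in WT oxLDL, 6.98 to 9.38 in KO untreated and 21.2 to 26 in WT untreated libraries, and their part in the Cxcl13 level was not tested.

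Cxcl12, a ligand made mostly by stromal cells, was low in all 12 libraries and called in none of the comparisons. It had 0.245, 0.216 and 0.154 FPKM in KO oxLDL, 0.176, 0.134 and 0.203 FPKM in WT oxLDL, 0.18, 0.187 and 0.176 FPKM in KO untreated and 0.211, 0.215 and 0.112 FPKM in WT untreated libraries, and all 4 groups overlapped. The 95% intervals were -0.42 to 0.79 log2 for oxLDL in KO, -0.26 to 0.96 for oxLDL in WT, -0.66 to 0.55 for KO against WT with oxLDL and -0.49 to 0.72 for KO against WT untreated. A difference of a doubling or more in either direction lay outside all 4 intervals. The 8 markers of mesothelial cells and fibroblasts summed to 6.74 to 7.32 FPKM in KO oxLDL, 9.15 to 10.6 in WT oxLDL, 6.5 to 7.09 in KO untreated and 9.7 to 10.9 in WT untreated libraries.

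**Figure D3:**
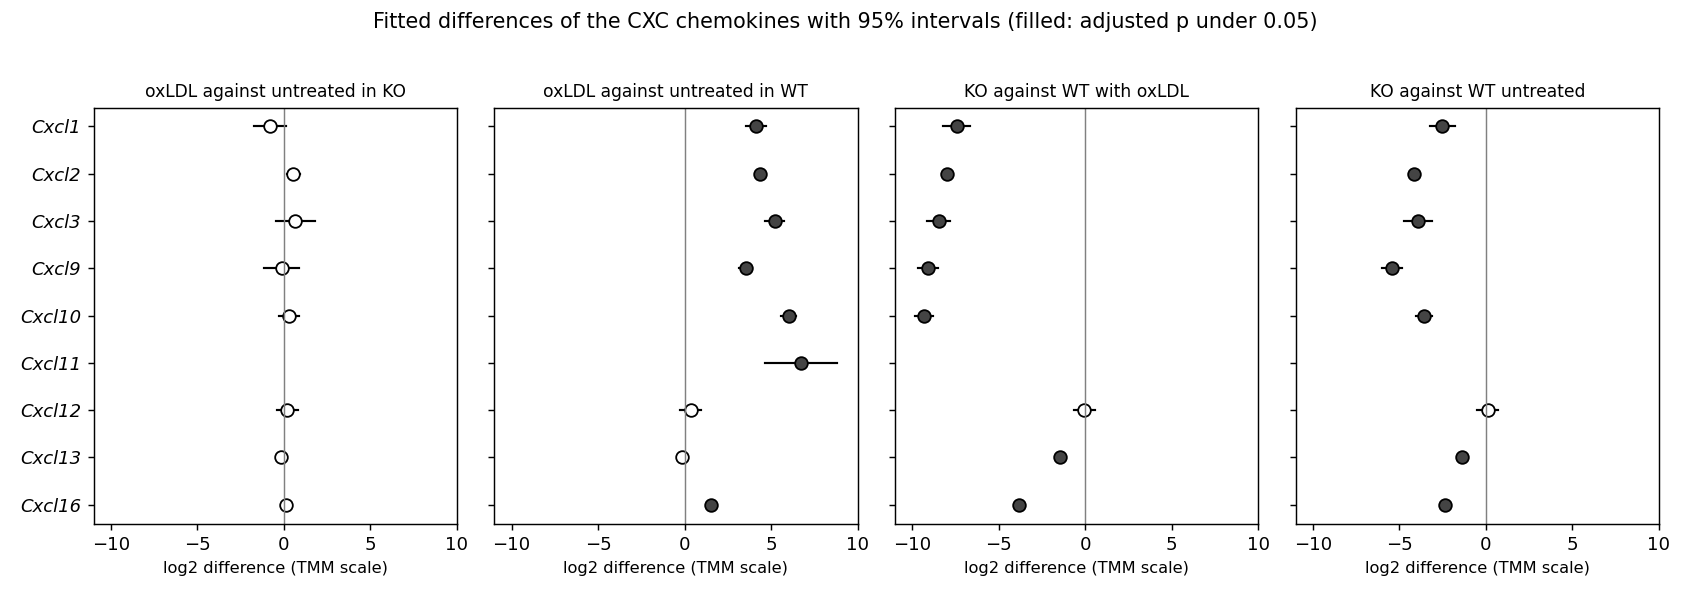
Fitted log2 differences of the CXC chemokines on the TMM scale (horizontal axes) with 95% intervals (bars), one panel per comparison; filled points had an edgeR Benjamini-Hochberg adjusted p under 0.05, and Cxcl11 is shown only for oxLDL in WT, where it had counts in both groups. All points are open for oxLDL in KO, 7 filled points lie to the right for oxLDL in WT, and the KO against WT points reach -9.31 for Cxcl10 with oxLDL.

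The oxLDL change itself was smaller in KO than in WT macrophages for 6 of the 9. The interaction was -5.73 ± 0.33 log2 for Cxcl10, -4.93 ± 0.51 for Cxcl1, -4.55 ± 0.66 for Cxcl3, -3.81 ± 0.21 for Cxcl2, -3.67 ± 0.53 for Cxcl9 and -1.44 ± 0.10 for Cxcl16 (SE; edgeR's quasi-likelihood test, Benjamini-Hochberg adjusted p at most 6.1e-05). Without replicate 3 of KO oxLDL it was -5.55 for Cxcl1 and -4.41 for Cxcl9, and without replicate 1 of KO untreated it was -3.94 for Cxcl3. It was -0.06 ± 0.14 for Cxcl13 and -0.17 ± 0.40 for Cxcl12, neither called, and could not be estimated for Cxcl11; limma on log2(FPKM + 1) gave Cxcl13 0.36 (limma, Benjamini-Hochberg adjusted p = 0.0365). As a share of the level in WT oxLDL macrophages, KO oxLDL macrophages held 0.191% of Cxcl10, 0.211% of Cxcl9, 0.329% of Cxcl3, 0.48% of Cxcl2 and 0.662% of Cxcl1 in FPKM, but 8.71% of Cxcl16 and 45.2% of Cxcl13. Against untreated WT macrophages, the untreated KO level was 1.99% for Cxcl9, 4.96% for Cxcl2, 5.72% for Cxcl3, 7.65% for Cxcl10, 15.7% for Cxcl1, 17.8% for Cxcl16 and 35.6% for Cxcl13. The comparisons share groups, so these values are set side by side and not tested against each other.

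Of the 7 chemokines that rose with oxLDL in WT, 6 lie on chromosome 5, in separate clusters with 1415409 bases between Cxcl2 and Cxcl9, and Cxcl16 lies alone. Per the table's coordinates, which match GRCm38, Cxcl3, Cxcl1 and Cxcl2 lie on the plus strand of chromosome 5, starting at 90786103, 90891241 and 90903871. Cxcl9, Cxcl10 and Cxcl11 lie on its minus strand, from 92321347 to 92328079, 92346638 to 92348882 and 92359544 to 92365485, and Cxcl13 lies apart on the plus strand, from 95956951 to 95961068. Cxcl12 is on chromosome 6, from 117168535 to 117181367, and Cxcl16 on chromosome 11, from 70453983 to 70459984. Art3, on the opposite strand, spans Cxcl10 and Cxcl11, and reads of overlapping genes cannot be told apart where the strand setting of the counting is not given; Art3 itself was at 0.0618 FPKM in WT oxLDL libraries.

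Some genes beside the 6 were called with oxLDL in WT too. Within 100000 bases of the Cxcl9 to Cxcl11 cluster, 6 other genes were tested. With oxLDL in WT, 3 of them were called higher and 1 lower, where 23.9% of all genes were called higher and 27.2% lower. The largest called change was 1.69 log2 for Ppef2, against 3.54 to 6.74 for the 3 chemokines. Between Ppef2 and the cluster, Naaa was at -0.09 and not called, and Sdad1, nearer to Cxcl9, was called higher at 0.85. Art3, which had few reads, had a fitted difference of 3.65 there that was not called. In KO against WT, 2 of the 6 were higher and 3 lower with oxLDL, beside 30.6% and 27.4% of all genes. Untreated, 1 was higher and 0 lower in KO, beside 14.8% and 16.2% of all genes. Around Cxcl1 to Cxcl3, 3 other genes were tested, 2 of them chemokines. With oxLDL in WT, 2 of the 3 were called higher and 0 lower. In KO against WT, 3 were lower with oxLDL and 1 untreated, and 0 were higher. Mthfd2l, which is no chemokine, was called at 1.02 log2 for oxLDL in WT and at -1.51 for KO against WT with oxLDL. Cxcl5, a further Cxcr2 ligand, averaged 0.0159 FPKM in KO oxLDL, 1.36 in WT oxLDL, 0.0747 in KO untreated and 0.268 in WT untreated libraries, and rose by 2.74 ± 0.68 log2 with oxLDL in WT, while its fitted difference in KO, -2.05, was not called. Pf4, platelet factor 4, averaged 19.2 FPKM in KO oxLDL, 44.8 in WT oxLDL, 20.4 in KO untreated and 54.8 in WT untreated libraries and was not called with oxLDL in WT (0.12 ± 0.09 log2, although the FPKM of the WT groups did not overlap) but was lower in KO by -1.52 ± 0.09 log2 with oxLDL and -1.32 ± 0.09 untreated. Cxcl14, tested as the remaining ligand outside the 9, ran the other way, at 2.34 ± 0.33 log2 for KO against WT with oxLDL and -1.58 ± 0.33 for oxLDL in WT.

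Several receptors of these ligands were higher in KO, where the ligands were low. Of 7 receptor genes tested, 4 were higher and 2 lower in KO than in WT macrophages with oxLDL. Of all genes, 30.6% were called higher there and 27.4% lower. Untreated, 4 receptors were higher and 1 lower, beside 14.8% and 16.2% of all genes. With oxLDL 0 receptors were called in KO, where 0.0116% of all genes were called higher and 0% lower. In WT 1 rose and 4 fell with oxLDL, beside 23.9% and 27.2% of all genes. The median receptor difference was 2.84 log2 for KO against WT with oxLDL, beside 0.05 over all genes. Cxcr4, the receptor of Cxcl12, averaged 67.2 ± 0.655 FPKM in KO oxLDL, 3 ± 0.4 in WT oxLDL, 67.3 ± 1.35 in KO untreated and 39.1 ± 1.43 in WT untreated libraries (SD, n = 3 each). With oxLDL its 95% interval in KO was -0.14 to 0.14 log2, and in WT it fell by 3.30 ± 0.08.

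Cxcr2, the receptor of Cxcl1 to Cxcl3, totalled 731 counts in KO oxLDL, 0 in WT oxLDL, 697 in KO untreated and 30 in WT untreated libraries, so it was at least 175-fold higher in KO than in WT macrophages with oxLDL. Cxcr1, its close relative, averaged 8.93 ± 1.13 FPKM in KO oxLDL, 0.383 ± 0.212 in WT oxLDL, 8.74 ± 0.979 in KO untreated and 1.5 ± 0.46 in WT untreated libraries. Cxcr3, which reads Cxcl9 to Cxcl11, was higher in KO by 2.84 ± 0.32 log2 with oxLDL and 1.47 ± 0.29 untreated. These 4 receptors were lowest in WT oxLDL, then in WT untreated, and highest in the KO groups, the reverse of the ligands of Cxcr2 and Cxcr3. Cxcr6, the receptor of Cxcl16, was lower in KO by -2.38 ± 0.45 log2 with oxLDL and -3.89 ± 0.51 untreated, and Cxcr5, the receptor of Cxcl13, was lower in KO by -2.67 ± 0.55 with oxLDL only, at 0.0625 FPKM in KO oxLDL and 0.327 FPKM in WT oxLDL libraries.

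**Figure D4:**
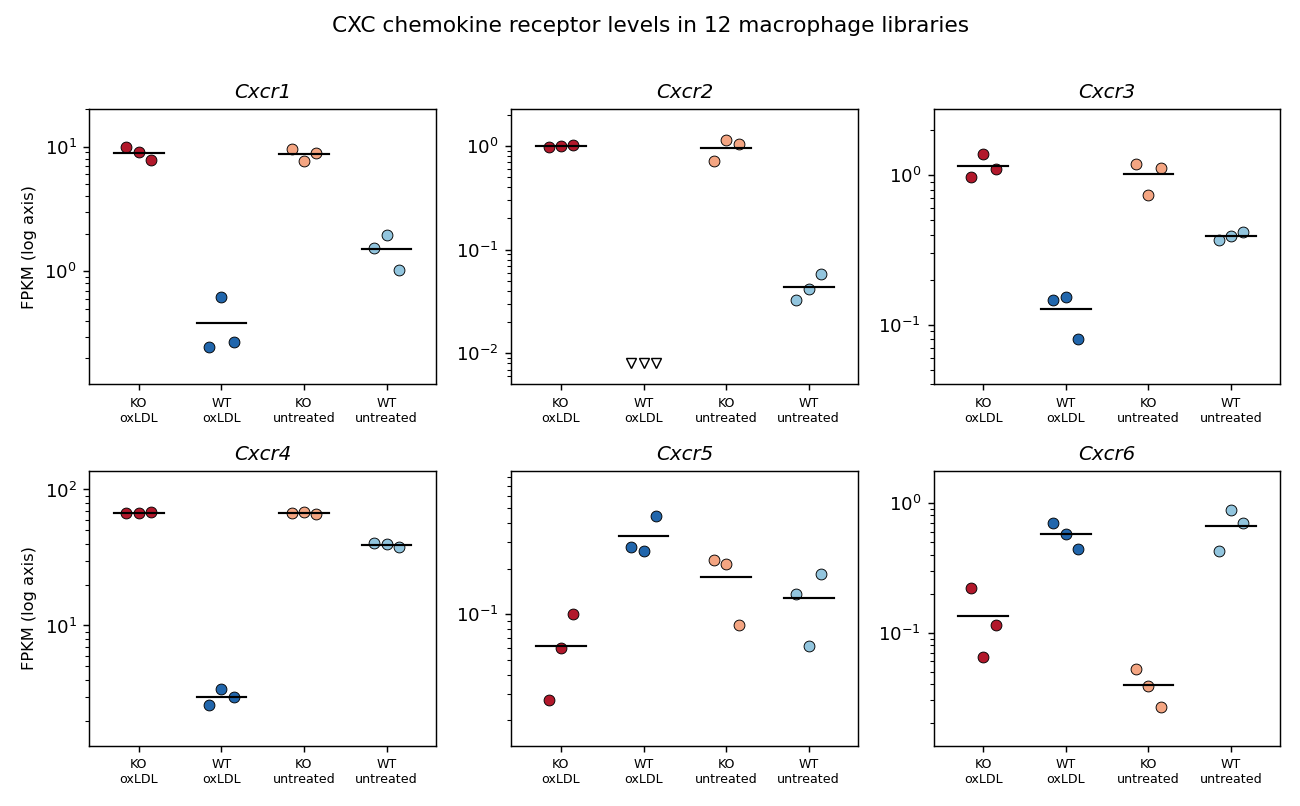
FPKM of 6 CXC chemokine receptors (vertical axes, log scale) in each library of the 4 groups (horizontal axes); points are libraries, lines are means of groups with no library at 0, and open triangles mark libraries listed at 0. Cxcr1, Cxcr2, Cxcr3 and Cxcr4 are lowest in WT oxLDL libraries, where Cxcr2 is at 0 and Cxcr4 averages 3 FPKM, and Cxcr6 is lower in both KO groups.

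With oxLDL, the listed genes of the NF-κB arm moved as Cxcl1 to Cxcl3 did. The list holds inducers of these ligands and also brakes, such as Tnfaip3 and Zc3h12a, which rose with oxLDL in WT by 2.84 and 3.10 log2. Of 11 tested, 0 were called with oxLDL in KO, where 0.0116% of all genes were called higher and 0% lower. With oxLDL in WT 11 rose, beside 23.9% of all genes. In KO against WT 11 were lower with oxLDL, beside 27.4% of all genes. Untreated, 8 were lower and 1 higher in KO, beside 16.2% and 14.8% of all genes. The median difference of the 11 was 2.37 log2 for oxLDL in WT and -3.00 for KO against WT with oxLDL. The largest were Il1b, at 7.13 ± 0.24 and -8.83 ± 0.27 log2, and Tnf, at 4.59 ± 0.11 and -7.47 ± 0.13, both cytokines that induce these ligands, and Nfkbiz, an NF-κB cofactor, at 3.65 ± 0.08 and -5.17 ± 0.09. Rel, an NF-κB subunit, was the 1 gene called higher in untreated KO, by 0.30 log2. These genes were listed with earlier results of these data known, so their direction is no independent evidence.

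Of 16 interferon arm genes, 0 were called with oxLDL in KO, beside 0.0116% of all genes higher and 0% lower. With oxLDL in WT 13 rose and 1 fell, beside 23.9% and 27.2% of all genes. In KO against WT 13 were lower and 1 higher with oxLDL, beside 27.4% and 30.6% of all genes. Untreated, 10 were lower and 1 higher in KO, beside 16.2% and 14.8% of all genes. The median difference of the 16 was 0.92 log2 for oxLDL in WT and -1.78 for KO against WT with oxLDL. Ifng, the cytokine that most strongly induces Cxcl9, averaged 0.0106 ± 0.0184 FPKM in KO oxLDL, 15.1 ± 1.21 in WT oxLDL, 0.0307 ± 0.0375 in KO untreated and 0.586 ± 0.119 in WT untreated libraries. Irf7 and Irf1, transcription factors of the interferon response, were lower in untreated KO by -4.54 and -3.56 log2, and Ifngr1, a subunit of the receptor for Ifng, ran the other way, 1.22 log2 higher in KO than in WT with oxLDL. Jak2, a kinase of that receptor, rose with oxLDL in WT by 2.79 log2. Ifnb1 totalled 20 counts in WT oxLDL, 8 in WT untreated and 0 in all KO libraries, and was not called.

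**Figure D5:**
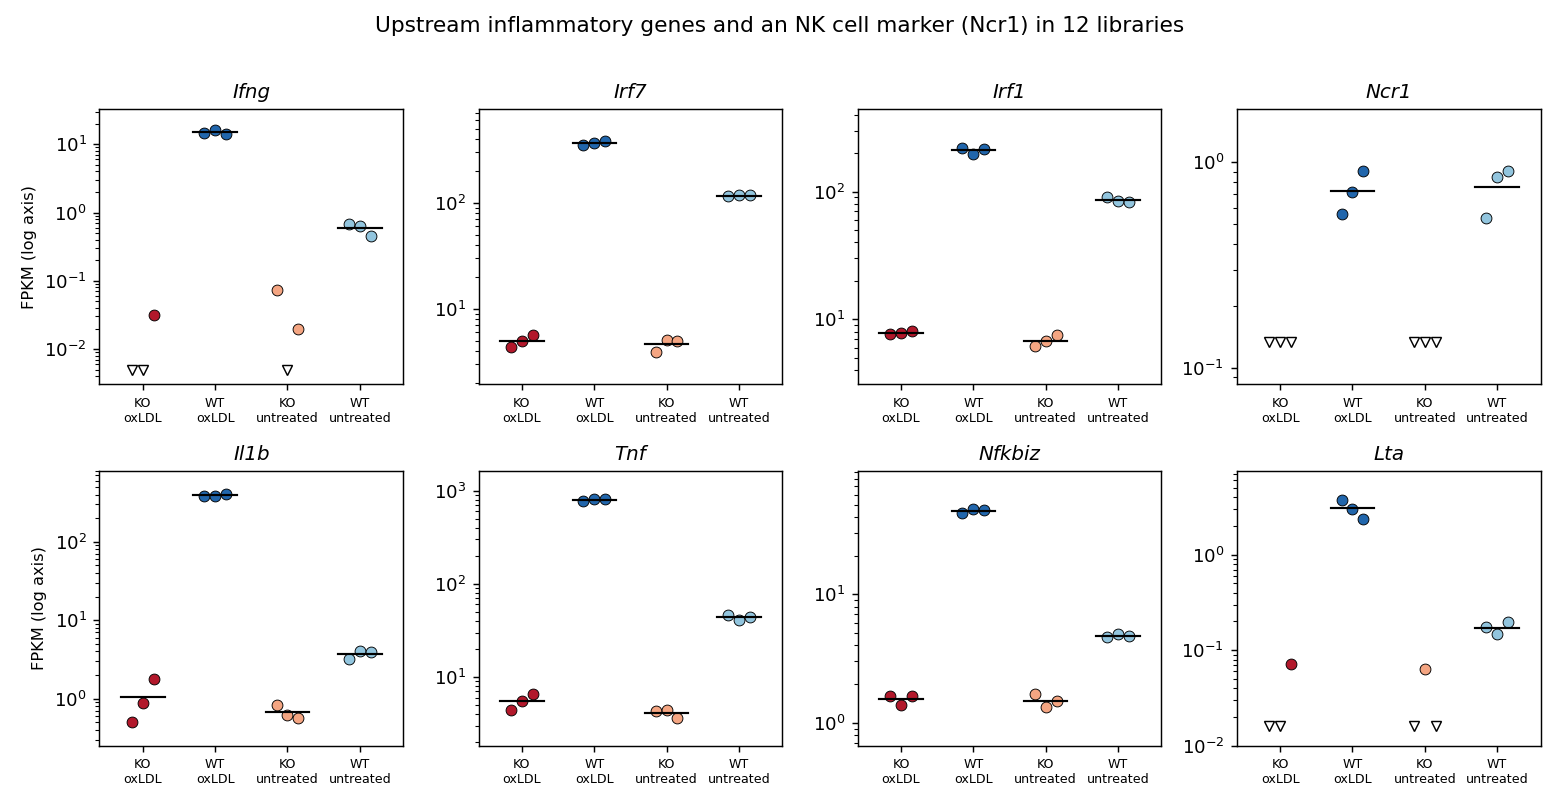
FPKM of 7 upstream genes and the NK cell marker Ncr1 (vertical axes, log scale) in each library of the 4 groups (horizontal axes); points are libraries, lines are means of groups with no library at 0, and open triangles mark libraries listed at 0. Ifng and Il1b are highest in WT oxLDL libraries, at means of 15.1 and 391 FPKM, while Ncr1 overlaps between the WT groups and is at 0 in all KO libraries.

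Of 8 genes of the non-canonical NF-κB arm, which drives Cxcl12 and Cxcl13 in lymphoid stroma, 0 were called with oxLDL in KO. Of all genes, 0.0116% were called higher there and 0% lower. With oxLDL in WT 4 rose and 1 fell, beside 23.9% and 27.2% of all genes. In KO against WT 6 were lower with oxLDL and 5 untreated, beside 27.4% and 16.2% of all genes. Lta, lymphotoxin alpha, rose with oxLDL in WT by 4.50 log2 and was lower in KO by -7.22 with oxLDL and -2.71 untreated, and Nfkb2 rose by 2.04 log2 with oxLDL in WT. Their median difference for oxLDL in WT was 0.63 log2, while neither Cxcl12 nor Cxcl13 was called there.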

How the data were processed

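Raw read counts per gene, and FPKM, which divide fragments by transcript length and library size, were both made by the authors and deposited in 1 table for 12 libraries, per the file headers. Per the submitters' processing notes, HISAT2 version 2.0, Bowtie version 0.12.2 and build mm8 were used, but 99.93% of 21990 matched genes overlap their RefSeq position on GRCm38, so positions are given on that build. The sources used here do not give the read counter or whether it used strand.

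Counts were fitted with edgeR 4.0.16 in R 4.3.3 (quasi-likelihood test, TMM, filterByExpr, 4 groups together, 8 residual degrees of freedom, no block), adjusted by Benjamini-Hochberg over 17291 genes, and the code was tested on simulated data. A standard error is the log2 difference over the square root of F. A floor of 3 counts over a group replaced a total of 0 in folds. Alternatives used DESeq2 1.42.0, limma 3.58.1 on log2(FPKM + 1) and log2(FPKM + 0.1), other scalings, no filter, a block, only the groups compared and each library left out. Precision rests on 3 libraries a group.

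All 9 chemokines are named; from each other list, up to 3 called genes a direction with the largest differences and any receptor or ligand needed beside them, and, for each chemokine, the 3 genes most like it. S100a8, Csf3r, the other marker genes and the genes beside the clusters were named after their values were seen. The members and lists were chosen with earlier results of these data known.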

Additional observations from a re-analysis of the deposited data

Results flagged for a closer look

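For 6 CXC chemokines the response to oxLDL differed between the genotypes, by edgeR's test of the difference itself. The oxLDL change in KO macrophages less the oxLDL change in WT macrophages was -4.93 log2 for Cxcl1, -3.81 for Cxcl2 and -4.55 for Cxcl3. It was -3.67 log2 for Cxcl9, -5.73 for Cxcl10 and -1.44 for Cxcl16. In each case the oxLDL change was called in WT and not in KO, and the levels of untreated KO macrophages were already lower than those of untreated WT macrophages.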

How the results depend on the processing

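The number of CXC chemokines called was 0 for oxLDL in KO, 7 to 8 for oxLDL in WT, 8 for KO against WT with oxLDL, 7 for KO against WT untreated and 6 to 8 for the interaction under all alternatives that gave a value. The added calls were a fall of Cxcl13 with oxLDL in WT (library totals alone and limma) and, in limma, the interactions of Cxcl13 and Cxcl11. For the 9 chemokines, directions differed only among values not called by edgeR with TMM. For Cxcl12, library totals alone, limma with 1 and limma with 0.1 added gave -0.06, -0.01 and -0.03 log2 for oxLDL in WT, 0.25, 0.04 and 0.17 for KO against WT with oxLDL, and 0.24, 0.04 and 0.14 for the interaction. For Cxcl13 they gave an interaction of 0.35, 0.36 and 0.36 (limma, Benjamini-Hochberg adjusted p = 0.0365 and 0.0441). The cause was not tested. With each library left out, ranges spanning 0 were -0.87 to 0.30 for Cxcl9 and -0.20 to 0.51 for Cxcl10 with oxLDL in KO, -0.22 to 0.11 for Cxcl12 in KO against WT with oxLDL and -0.14 to 0.26 untreated, and interactions of -0.33 to 0.09 for Cxcl12 and -0.14 to 0.08 for Cxcl13.

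Same-numbered libraries did not deviate together (correlations -0.04 to 0.03), so no pairing by number was seen in these values. Whether the numbers mark a shared mouse, day or batch was not tested. Replicate 2 had the lowest library total in both WT groups, 53588814 counts in WT oxLDL and 54574550 in WT untreated. The fit with the replicate block called 0, 7, 8, 7 and 6 chemokines in the same order of comparisons. Over all genes, 2 were called for oxLDL in KO, against 97 with DESeq2, 61 with only the 2 groups compared, 1 and 0 with limma, 1 with no filter, 0 with the block and 0 to 57 with each library left out. Library totals alone moved the split of higher and lower calls to 2222 and 8322 for oxLDL in WT (4140 and 4708 with TMM), 7538 and 3302 for KO against WT with oxLDL (5286 and 4730), 1766 and 3849 untreated (2559 and 2800) and 7174 and 1834 for the interaction (3828 and 3389). Fitted values for Cxcl11 in KO, at 0 counts, are not given. Low counts limit Cxcl1, Cxcl3 and Cxcl9 in KO, where 4 to 43 counts a library left wide intervals.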

Other observations

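Proteases that cut or shed CXC chemokines did not move one way. Of 8 tested, 0 were called with oxLDL in KO, beside 0.0116% of all genes higher and 0% lower. With oxLDL in WT 4 rose and 3 fell, beside 23.9% and 27.2% of all genes. Among the 4, Adam17 rose by 0.29 log2 with TMM but was called lower with library totals alone and limma on log2(FPKM + 1), where 3 rose and 4 fell. In KO against WT, 3 were higher and 4 lower with oxLDL, beside 30.6% and 27.4% of all genes. Untreated, 2 were higher and 5 lower in KO, beside 14.8% and 16.2% of all genes. Adam10, which sheds Cxcl16 from resting cells, averaged 59.5 ± 1.93 FPKM in KO oxLDL, 27.7 ± 0.681 in WT oxLDL, 61.1 ± 1.97 in KO untreated and 56.9 ± 1.57 in WT untreated libraries. Mmp12, which truncates neutrophil-attracting CXC chemokines, averaged 156 ± 8.32 FPKM in KO oxLDL, 26.2 ± 0.685 in WT oxLDL, 167 ± 1.9 in KO untreated and 44.9 ± 2.53 in WT untreated libraries (SD, n = 3 each). Mmp2, Mmp9 and Mmp14 were lower in KO than in WT macrophages with oxLDL, by -6.36, -5.31 and -3.80 log2 in edgeR's fit.

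The genes most like each chemokine were sought among all tested genes by Pearson's r of TMM-scaled, depth-adjusted log2 counts over the 12 libraries, as a description; the libraries form 4 groups of 3, so r rests mainly on the group levels. They were Tap2, Slfn4 and Ogfr for Cxcl2 (r of 0.998 to 0.999), Slc7a8, Slco3a1 and Traf1 for Cxcl10 (0.998 to 0.999) and Rasgrp1, Cd38 and Icam1 for Cxcl16 (0.999). They were Gm28913, Pnp2 and Rnaset2a for Cxcl1 (0.991 to 0.993), Zfp811, Tnfsf9 and Med13l for Cxcl3 (0.994 to 0.995), Ralgps1, Cp and Pgap2 for Cxcl9 (0.995 to 0.996) and Ggta1, Tgif1 and Cop1 for Cxcl11 (0.995). For Cxcl13 they were Tmprss4, C1rl and Gbp8 (0.982 to 0.992), and for Cxcl12, whose groups overlapped, Tbpl1, Esam and Mir142hg (0.798 to 0.830).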
